A study of Mus musculus with 1037 samples.

Results

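The 9 genes described here act at the surface of a dying cell: Xkr8, Ano6, Atp11a, Tmem30a, Calr, Anxa1, Anxa5, Cd47 and Panx1. They were chosen by name, and each was found as 1 row among the 55335 genes of a single-cell RNA-seq table of the mouse hair follicle. Smart-seq2 libraries, in which the RNA of 1 sorted cell per well is copied along its length, were made from back-skin follicles of wild-type mice at 3 stages of the hair cycle. AnaVI, the end of growth, gave the lower outer root sheath (ORS) sort LOS with 39 usable cells and the upper-middle ORS sorts MOS with 38 and UOS, where 83.6% of cells were usable and 22 were left out. CatVI, in the regression phase and at postnatal day 17 by its titles, gave upper ORS cells on plates: 19 and 9 cells on plates 1 and 2 (PhagoHFSC alive), 15 on plate 5 (PhagoHFSC apop) and 14 on plate 6 (NonPhagoHFSC apop). CatVII, later in regression, gave the upper ORS sorts OSalive, where 80.1% of cells were usable and 31 were left out, and OSapop with 92 cells. The usable share was lower in the other sorts, at 65.2% in OSapop, 41.9% in LOS and 52.8% in MOS. On plates 1, 2, 5 and 6 it was 21.6%, 12.3%, 17.6% and 20.3%. The titles give no age for AnaVI and CatVII, and the letter f that follows the day in the CatVI titles is not explained.

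By the study's sort scheme, cells positive for Sca1 or for a lineage marker (CD31, CD117, CD140a, CD45) were removed, CD34+ Itga6+ cells were kept, and alive cells did not bind annexin V. The terms PhagoHFSC and NonPhagoHFSC appear in the titles and are used here as names only. The study names annexin V for apoptotic and DAPI for dying cells, and its scheme writes alive cells as DAPI+. The study mixed cells of 3 to 6 animals at each stage before sorting, and the labels tell none of them apart, so that each sort or plate is 1 sample. No test could be made between them, and every interval below covers counting error only. Between stages, the stage and the library preparation cannot be told apart. Within CatVI, sort and plate cannot be told apart. The CatVII titles name no plate, and well labels recur in both OSalive and OSapop, so that sort and plate cannot be told apart there. The same holds for LOS and MOS in AnaVI. In late anagen the study also prepared lower follicle cells as a dermal fraction, apart from an epidermal fraction with the upper follicle. The labels name no fraction, so that region and fraction cannot be told apart between LOS and UOS.

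Phosphatidylserine is a phospholipid that a living cell keeps on the inner face of its plasma membrane. Flippases are P4-type ATPases, most of which need a chaperone subunit. Some of them return phosphatidylserine to the inner face, and scramblases let it move to the outer face. There phagocytes and bridging proteins recognise it as an eat-me signal. XKR8 and ATP11A are known to be switched on and off, respectively, by caspase cleavage of the protein, and ANO6 by calcium, so that RNA levels do not read their activity. In the regressing follicle, epithelial cells die in large numbers, and dying cells are known to be taken up by their epithelial neighbours. The annexin V of the sort is an added protein, whereas Anxa5 below is the transcript of the cell itself.

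Depth differed widely between the sorts. The summed gene counts ran from 1840012 on plate 6 to 287377663 in OSalive, and the median count per cell from 90483 on plate 6 to 2182588 in OSalive, against 482288 in OSapop. A single gene without a symbol took 56.3% to 66.5% of the counts of each sort. Levels are given as counts per 1000000 gene counts (CPM). The log2 ratios of the genes described here were also computed under other scalings, except between the alive plates. The levels themselves, among them those of the CatVI plates beside other stages, were compared as CPM only. All 10 markers of ORS and bulge keratinocytes had counts in every sort, with a summed level of 1645 to 7084 CPM. On plate 2, 1 cell held 62.3% of these marker counts, and 8 of the 9 usable cells had any. Markers of other cells were present too. Those of fibroblasts summed to 1405 CPM in LOS, where 1 cell held 65.4% of them, and to 4.004 to 353.5 CPM elsewhere. Melanocyte markers reached 158.4 CPM in LOS and 156.3 CPM on plate 2 and were at or under 12.5 CPM in the other sorts. Inner root sheath and hair shaft markers summed to 742.7 CPM in UOS, where 1 cell held 68.01% of them, to 282.7 CPM in LOS and to 24.7 to 89.7 CPM elsewhere. Plates 3 and 4 (NonPhagoHFSC alive) held no cell with 2000 detected genes, the limit used for a usable cell.

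The members lie on 7 chromosomes of GRCm39, and each value counts reads of a whole gene. Xkr8 (ENSMUSG00000037752) lies on the minus strand at chr4:132452208-132459897 and Ano6 (ENSMUSG00000064210) on the plus strand at chr15:95688613-95873353. Atp11a (ENSMUSG00000031441) spans chr8:12807003-12918729 on the plus strand, and Tmem30a (ENSMUSG00000032328) chr9:79675532-79700853 on the minus strand. Calr (ENSMUSG00000003814) spans chr8:85567946-85573667, Anxa1 (ENSMUSG00000024659) chr19:20350792-20368374 and Anxa5 (ENSMUSG00000027712) chr3:36503072-36530126, all on the minus strand. Cd47 (ENSMUSG00000055447) spans chr16:49620896-49735373 on the plus strand, and Panx1 (ENSMUSG00000031934) chr9:14913424-14956813 on the minus strand. Exons of 7 of the 9 genes overlap an exon of another annotated gene on the other strand, and the protocol marks no strand, so that reads there cannot be told apart. Calr and Anxa1 have no such overlap.

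Compared per length of the canonical transcript, 8 of the 9 genes kept the same coarse order within every sort, with Anxa1 as the exception. Xkr8 was the lowest of the 9 in all 9 sorts and plates, with 0 to 0.767 CPM per 1000 bases, and Panx1 the second lowest, with 0.462 to 2.25. Atp11a had 3.40 to 9.09, Ano6 4.17 to 13.1 and Tmem30a 5.21 to 10.3 CPM per 1000 bases. Calr, Anxa5 and Cd47 were above these 3 within each sort, with 15.2 to 39.6 for Calr, 11.2 to 40.9 for Anxa5 and 13.03 to 60.7 for Cd47. Anxa1 had 3.88 to 37.1 CPM per 1000 bases and ranked from 2 in OSapop to 6 on plates 1 and 5. The highest of the 9 per length was Cd47 in UOS, on plate 5 and in OSalive and OSapop, Calr in LOS, in MOS and on plate 2, and Anxa5 on plates 1 and 6.

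**Figure D1:**
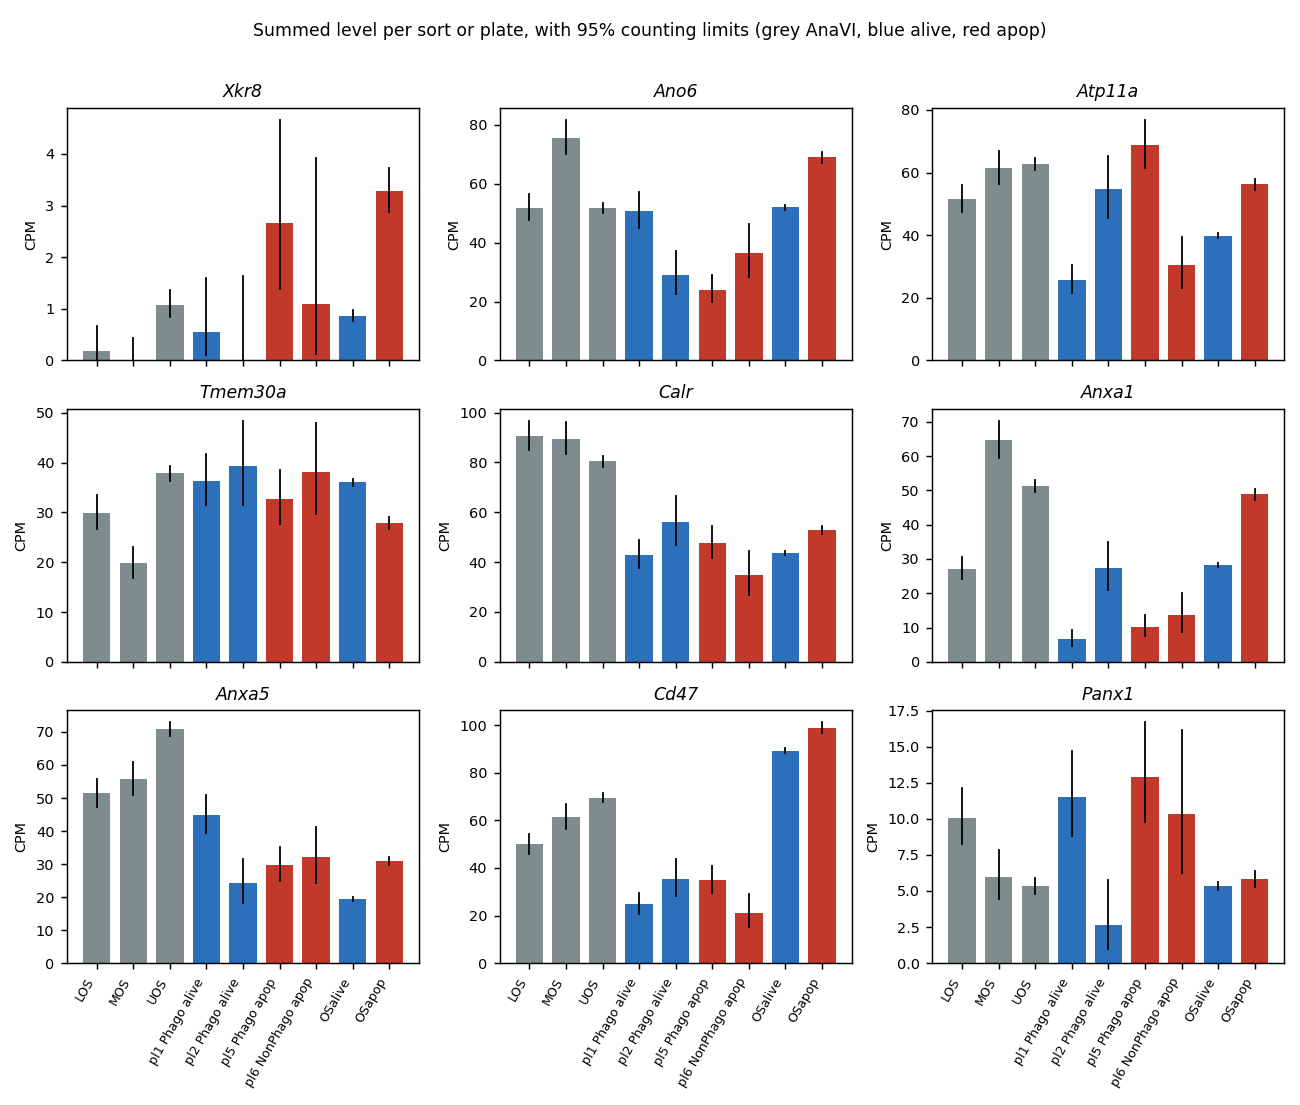
Level of each gene in CPM (vertical axis, from 0) in the 9 sorts and plates with usable cells, where bars are summed counts and black lines are exact Poisson 95% limits of those counts. Calr stood between 80.5 and 90.7 CPM in the 3 AnaVI sorts and between 34.8 and 56.1 CPM in the 6 catagen sorts and plates, and Cd47 was highest in OSalive and OSapop.

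Xkr8, the scramblase that caspases activate, was barely detected. Its level was 0.187 CPM in LOS, 0 in MOS and 1.083 in UOS, then 0.547 on plate 1, 0 on plate 2, 2.67 on plate 5 and 1.09 on plate 6, and 0.866 in OSalive and 3.29 in OSapop. In all, 30 of 463 cells (6.48%) had any Xkr8 count, namely 2 in LOS, 0 in MOS, 9 in UOS, 2, 0, 1 and 1 on plates 1, 2, 5 and 6, 9 in OSalive and 6 in OSapop. The share of cells was thus 7.20% in OSalive (Clopper-Pearson limits 3.35% and 13.2%) and 6.52% in OSapop (2.43% and 13.7%), which overlap. The 0 counts in MOS and on plate 2 have exact Poisson upper limits of 0.432 and 1.63 CPM, as drawn in the plot of levels. Taken as 3 counts, they would be 0.351 and 1.32 CPM. In OSapop, 87.1% of the 240 counts came from 1 cell with 124.3 CPM, and without that cell the level was 0.434 CPM. Single cells weighed in the other sorts too: without the top cell the level was 0.0984 CPM in LOS, 0.681 in UOS, 0.191 on plate 1, 0 on plates 5 and 6 and 0.526 in OSalive. The same cell had the highest Atp11a count of OSapop. Eya3, which overlaps Xkr8 on the other strand, was at 3.97 to 21.5 CPM in the sorts and had a count in 18 of the 30 cells with Xkr8. Among all usable cells, with or without Xkr8, Eya3 had a count in 61.6% in OSalive and 54.3% in OSapop. Across the sorts and plates this share ran from 22.2% on plate 2 to 66.7% on plate 5, so that Eya3 was common without regard to Xkr8. Its level was 13.8 CPM in OSalive, 13.3 CPM in OSapop and 33.9 CPM in the OSapop cell with the most Xkr8, and its part in the Xkr8 counts was not tested.

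Ano6, the calcium-activated scramblase TMEM16F, was found in most cells of every sort. It was at 51.9 CPM in LOS, 75.6 in MOS and 51.8 in UOS. The catagen values were 50.9 on plate 1, 29.1 on plate 2, 24.03 on plate 5, 36.4 on plate 6, 52.02 in OSalive and 68.9 in OSapop. The counting limits of UOS, LOS, OSalive and plate 1 overlapped, MOS and OSapop were above them, and the lowest values were those of plates 5 and 2. Across the sorts, 57.1% to 94.4% of cells had a count, and the median cell had 17.8 to 60.1 CPM. Plate 6 was at 22.3 CPM without its top cell.

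Atp11a, a plasma membrane flippase, was at 51.5 CPM in LOS, 61.4 in MOS and 62.8 in UOS. It was at 25.7 on plate 1, 54.8 on plate 2, 68.7 on plate 5, 30.4 on plate 6, 39.8 in OSalive and 56.3 in OSapop. The lowest and the highest of the 9 values were thus both CatVI plates, 2.67-fold apart. Tmem30a, the chaperone CDC50A without which most flippases do not leave the endoplasmic reticulum, had the narrowest range of the 8 genes other than Xkr8. Its level was 29.95 CPM in LOS, 19.8 in MOS and 37.8 in UOS, 36.3, 39.3, 32.7 and 38.04 on plates 1, 2, 5 and 6, and 36.03 in OSalive and 27.8 in OSapop. The highest was 1.99-fold the lowest, and MOS was the only value whose counting limits were clear of its neighbour's in the order of levels. On plates 2 and 6, which held the highest values, 1 cell gave 53.9% and 52.9% of the counts, and the levels without it were 20.6 and 21.4 CPM.

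Calr encodes calreticulin, a chaperone of the endoplasmic reticulum that acts as an eat-me signal when it reaches the cell surface. It was at 90.7 CPM in LOS, 89.5 in MOS and 80.5 in UOS. It was at 43.03, 56.1, 47.8 and 34.8 CPM on plates 1, 2, 5 and 6, at 43.6 in OSalive and at 52.98 in OSapop. The AnaVI values did not overlap the catagen values. The median cell had 77.2, 83.2 and 77.1 CPM in LOS, MOS and UOS, and 15.3 to 58.6 CPM in the catagen sorts and plates. Plate 2 was at 36.5 CPM without its top cell.

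Anxa1, an annexin that binds phosphatidylserine and is carried to the surface of apoptotic cells, varied most of the 8 genes other than Xkr8. It was at 27.2 CPM in LOS, 64.6 in MOS, 51.2 in UOS, 6.75 on plate 1, 27.4 on plate 2, 10.2 on plate 5, 13.6 on plate 6, 28.3 in OSalive and 48.9 in OSapop, a 9.58-fold range. Few cells carried much of it. In MOS, 1 cell with 539 CPM held 70.7% of the counts, and without it the level was 20.7 CPM. In UOS the top cell held 31.5% of the counts and in OSalive 20.2%, and the levels without them were 36.2 and 22.9 CPM. Plates 1, 2, 5 and 6 were at 4.48, 15.5, 4.45 and 5.85 CPM without their top cells.

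Anxa5, the gene of the annexin used as a sort reagent, was at 51.4 CPM in LOS, 55.7 in MOS and 70.9 in UOS. It was at 44.9, 24.3, 29.6 and 32.1 CPM on plates 1, 2, 5 and 6, at 19.4 in OSalive and at 30.9 in OSapop. The AnaVI sorts held the 3 highest values, although the counting limits of LOS and plate 1 touched. On plate 2 a single cell held 85.5% of the counts, and the level without it was 3.88 CPM. Plates 1 and 6 were at 26.3 and 15.9 CPM without their top cells. In UOS 95.5% of cells had a count and the median cell had 49.4 CPM, against 72.8% and 11.8 CPM in OSalive and 64.1% and 11.96 CPM in OSapop.

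Cd47, the do-not-eat-me ligand of the phagocyte receptor SIRPA, was at 49.9 CPM in LOS, 61.3 in MOS and 69.5 in UOS. It was at 24.8, 35.3, 34.9 and 21.2 CPM on plates 1, 2, 5 and 6, at 89.3 in OSalive and at 98.8 in OSapop. The stages did not overlap: the 4 CatVI plates were lowest, the AnaVI sorts intermediate and the CatVII sorts highest, a 4.66-fold range. In OSalive 98.4% of cells had a count. Plate 2 was at 15.1 CPM without the cell that held 62.5% of its counts.

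Panx1 encodes a channel that caspases open in dying cells and through which nucleotide find-me signals leave. It was at 10.1 CPM in LOS, 5.97 in MOS, 5.34 in UOS, 11.5 on plate 1, 2.65 on plate 2, 12.9 on plate 5, 10.3 on plate 6, 5.35 in OSalive and 5.82 in OSapop. UOS, OSalive, OSapop and MOS did not differ beyond counting error. Without the top cell, MOS was at 3.12 CPM and plates 1, 2 and 6 at 6.69, 0.470 and 6.34 CPM. The share of cells with a count was 22.2% to 53.3%, and the median cell had a count only on plate 5, at 6.92 CPM.

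The main comparison set the CatVII cells sorted as apop against those sorted as alive. Most of the 9 genes differed little between OSapop and OSalive. The ratio of OSapop to OSalive was above 1 for 8 of the 9 genes and below 1 for Tmem30a. The median log2 ratio of the members was 0.41, beside 0.12 over the 13886 genes with 100 or more counts in the 2 sorts. Most of those genes also had a ratio above 1, with log2 quartiles of -0.35 and 0.52. Past 2-fold was 1 member, Xkr8, which was higher, and 0 were lower. Of all genes, 10.6% were higher and 11.3% lower by that size.

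Each ratio is given as log2 with its 95% counting interval. Anxa1 was at 48.9 CPM against 28.3 CPM, a log2 ratio of 0.79 (0.73 to 0.84), and Anxa5 at 30.9 against 19.4 CPM, a log2 ratio of 0.67 (0.60 to 0.74). The median cell had 22.7 CPM of Anxa1 in OSapop and 12.5 CPM in OSalive. For Anxa5 the medians were close, at 11.96 and 11.8 CPM, and the sorts parted in the upper quartile, at 50.03 CPM in OSapop and 28.5 CPM in OSalive. Atp11a had a log2 ratio of 0.50 (0.45 to 0.55), Ano6 of 0.41 (0.36 to 0.45) and Calr of 0.28 (0.23 to 0.33). Tmem30a had a log2 ratio of -0.37 (-0.44 to -0.30). Thus Atp11a and Tmem30a lay on opposite sides of 0, although with every cell thinned to 50000 counts Tmem30a turned to 0.22. Tmem30b, the other measured flippase chaperone gene, was at 22.04 against 13.2 CPM, a log2 ratio of 0.74 (0.65 to 0.82). Cd47 had a log2 ratio of 0.15 (0.11 to 0.18) and Panx1 of 0.12 (-0.04 to 0.28). Both lay close to the median of all genes, and their direction turned under 3 scalings, at -0.04, -0.06 and -0.01 for Cd47 and -0.07, -0.08 and -0.03 for Panx1 with median-of-ratios, TMM and protein-coding totals. Panx1 was also below 0 when each cell had equal weight (-0.19) and when the deepest cell of each sort was dropped (-0.08).

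The ratio of Xkr8, log2 1.92 (1.66 to 2.18), rested on the single OSapop cell named above. Without the cell with the highest count in each sort it was -0.28, and as a mean over cells it was 0.19. This alternative was chosen after seeing the data. It left the other 8 ratios between -0.38 and 0.94, each on the same side of 0 as before.

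**Figure D2:**
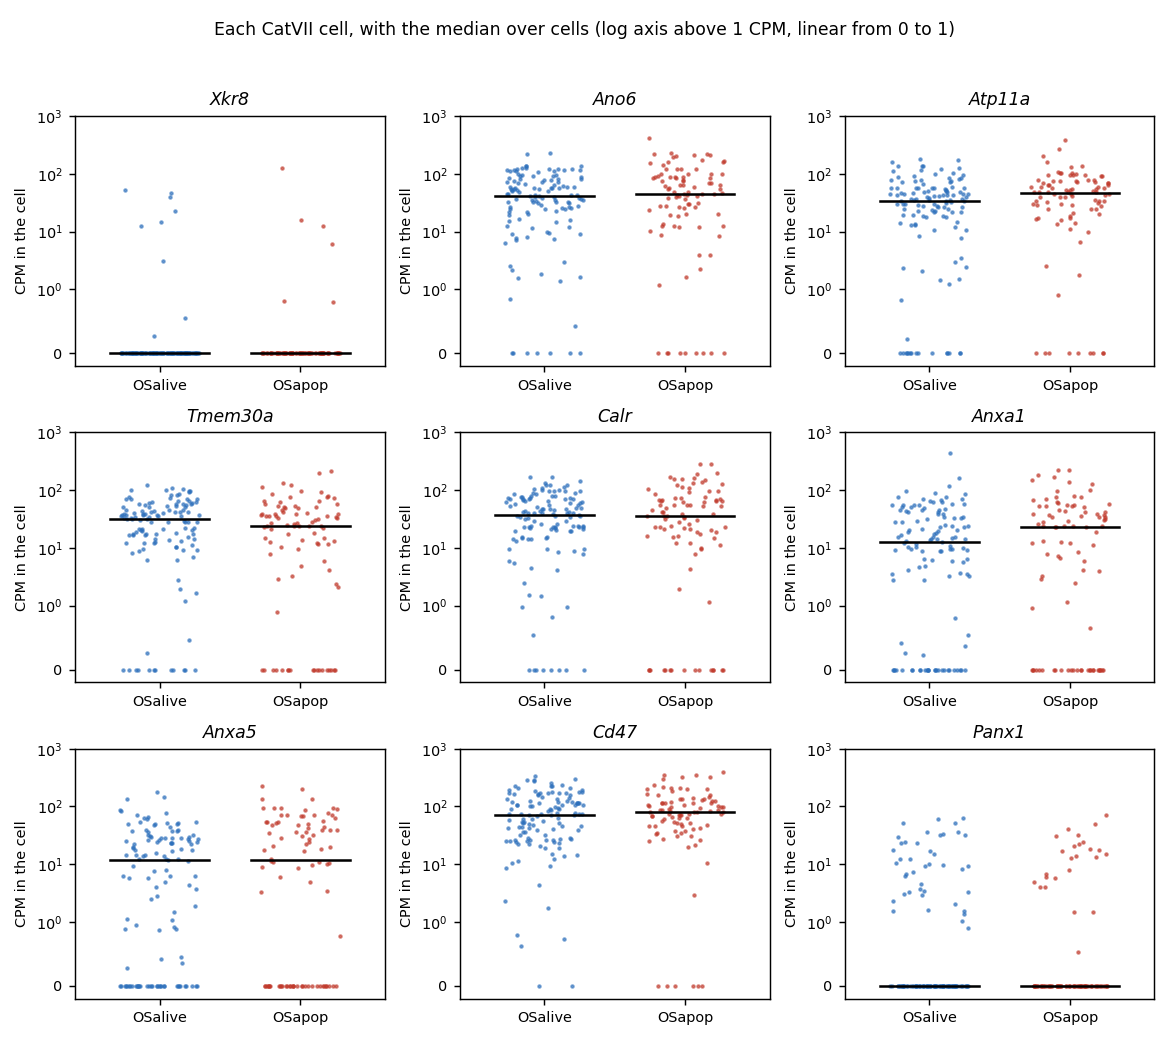
CPM of each gene in each OSalive cell and each of the 92 OSapop cells (points, spread sideways at random) with the median over cells (black line); the vertical axis is logarithmic above 1 CPM. The clouds overlap for all 9 genes, and a single OSapop cell stands at 124.3 CPM of Xkr8.

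Shares of cells with a count went with depth. With all counts the share was lower in OSapop for 8 of the 9 genes, where the median cell had fewer counts. With every cell thinned to 50000 counts, which left out 1 shallower OSalive cell and 7 OSapop cells, it was higher in OSapop for 7 genes and lower for 2, and the limits overlapped for all 9. At that depth Atp11a was found in 62.9% of OSalive cells and 71.8% of OSapop cells, Panx1 in 12.1% and 18.8%, Tmem30a in 66.9% and 58.8%, and Cd47 in 85.5% and 87.1%. A cell thinned in this way had a count of 5 of the 9 genes at the median in both sorts. Keratinocyte markers summed to 4625 CPM in OSalive and 5022 CPM in OSapop, fibroblast markers to 188.7 and 186.5 CPM, and immune markers to 4.24 and 7.01 CPM, with 6 and 9 of 10 markers found.

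**Figure D3:**
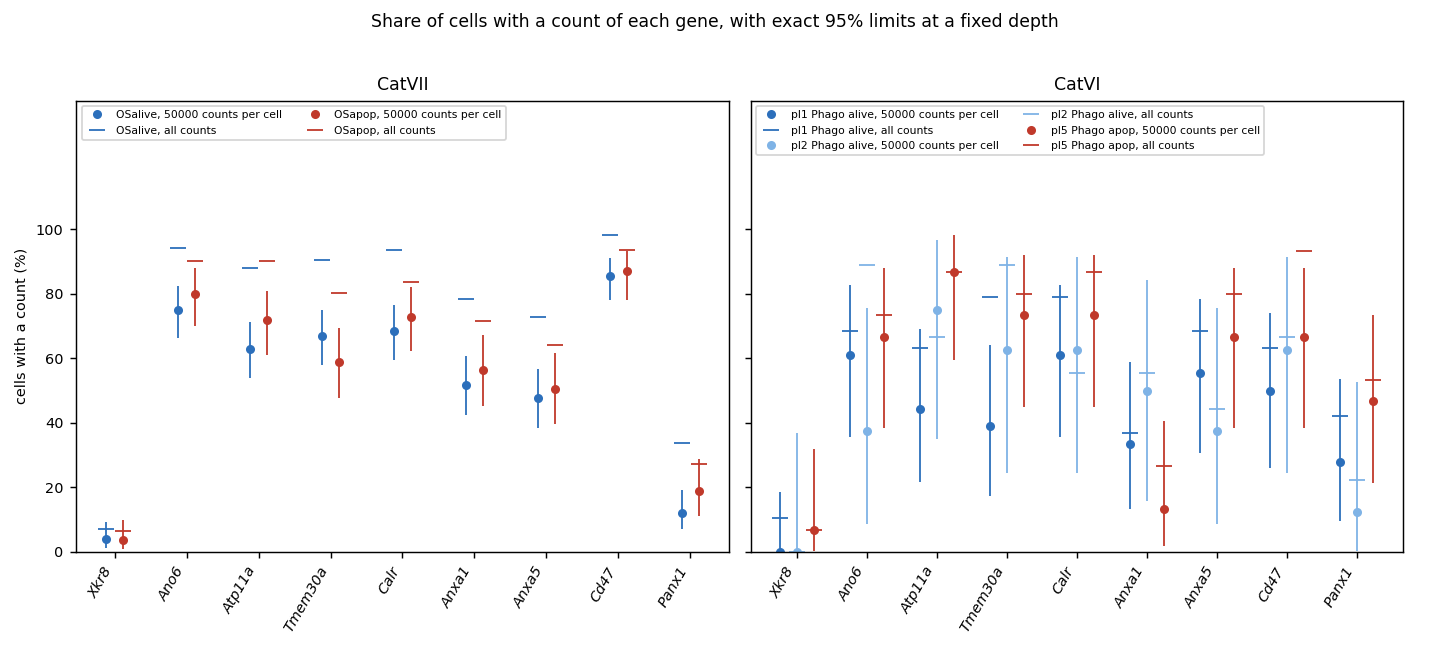
Share of cells with a count of each gene (vertical axis, percent) in the CatVII sorts and on the CatVI plates 1, 2 and 5; dashes use all counts, points use cells thinned to 50000 counts and lines are exact 95% limits. At the fixed depth the limits of OSalive and OSapop overlap for every gene, and the 8 to 18 cells per CatVI plate leave wide limits, as do the 15 of plate 5.

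At CatVI the same question can be asked of PhagoHFSC cells only: plate 5 (apop) against plates 1 and 2 (alive) together. Here the members were divided. Of the 8 with 100 or more counts, 4 were above 0 and 4 below, with a median log2 ratio of -0.08 beside -0.19 over 5260 genes. Most of those genes were below 0, with log2 quartiles of -0.89 and 0.43. Past 2-fold were 1 gene higher, Atp11a, and 0 lower. Over all genes tested, 10.8% were higher and 22% lower by that size.

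Atp11a was at 68.7 CPM on plate 5 and 34.2 CPM on plates 1 and 2 together, a log2 ratio of 1.01 (0.77 to 1.25). It was 1.42 against plate 1 alone and 0.33 against plate 2 alone, and under 1 with TMM (0.94) and spike-in scaling (0.97) and as a mean over cells (0.82). Ano6 was at 24.03 against 44.5 CPM, a log2 ratio of -0.89 (-1.22 to -0.57), which was -1.08 against plate 1 and -0.28 against plate 2. Anxa5 was at 29.6 against 38.8 CPM, a log2 ratio of -0.39 (-0.70 to -0.09), and turned to 0.28 against plate 2. Panx1 had a log2 ratio of 0.54 (0.01 to 1.06), with 0.17 against plate 1 and 2.28 against plate 2, where Panx1 had 6 counts, and -0.46 as a mean over cells. Anxa1, with 46 and 99 counts, had a log2 ratio of -0.32 (-0.86 to 0.20), but 0.60 against plate 1 and -1.42 against plate 2. Calr (0.03, -0.22 to 0.28) and Tmem30a (-0.18, -0.48 to 0.11) did not differ beyond counting error. Cd47 had a log2 ratio of 0.33 (0.02 to 0.63), but -0.15 with thinned cells. It was at 34.9 CPM on plate 5 and at 24.8 and 35.3 CPM on plates 1 and 2. Xkr8 had 12 counts on plate 5, all in 1 cell, and 3 on the alive plates.

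The alive plates differed from each other about as much. Plate 2 set against plate 1, with the same labelled sort on both, gave a log2 ratio of 1.09 (0.73 to 1.45) for Atp11a, -0.80 (-1.21 to -0.41) for Ano6 and -0.89 (-1.33 to -0.46) for Anxa5, whose plate 2 counts came mostly from the 1 cell named above. Of the 6 members with 100 or more counts in both comparisons, the ratio between the alive plates was the larger in size for 4 and the ratio of apop to alive for 2, Ano6 and Tmem30a. Between the alive plates 1 of 6 members was past 2-fold higher and 0 lower, beside 12.8% and 32.5% of 3791 genes. The level of plate 5 lay between those of plates 1 and 2 for Calr, Anxa1, Anxa5 and Cd47, above both for Xkr8, Atp11a and Panx1 and below both for Ano6 and Tmem30a. Other cell types also differed between these plates: melanocyte markers summed to 2.01 CPM on plate 1, 156.3 on plate 2 and 0.445 on plate 5, and endothelial markers to 51.4, 0.442 and 0 CPM. Interfollicular and upper follicle markers, nearly all Krt79 on plate 2, summed to 1.28, 233.6 and 0.445 CPM, and mitochondrial genes took 3.30%, 9.42% and 3.92% of the counts. Their part in the ratios was not tested. NonPhagoHFSC cells could not be compared, since the alive plates 3 and 4 had no usable cell.

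**Figure D4:**
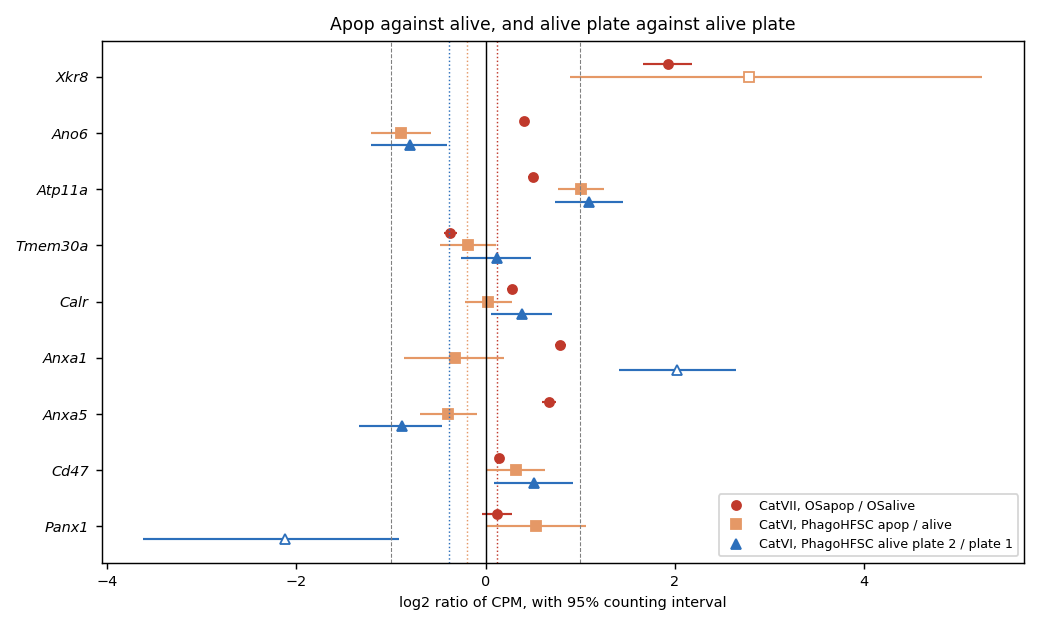
The log2 ratio of CPM (horizontal axis) with 95% counting intervals for OSapop to OSalive (circles), PhagoHFSC apop to alive (squares) and alive plate 2 to plate 1 (triangles); open symbols have under 100 counts, dotted lines are medians of all genes and dashed lines mark 2-fold. For Ano6, Atp11a and Anxa5 the squares and the triangles lie on the same side of 0, with the alive plates apart by -0.80, 1.09 and -0.89.

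**Figure D5:**
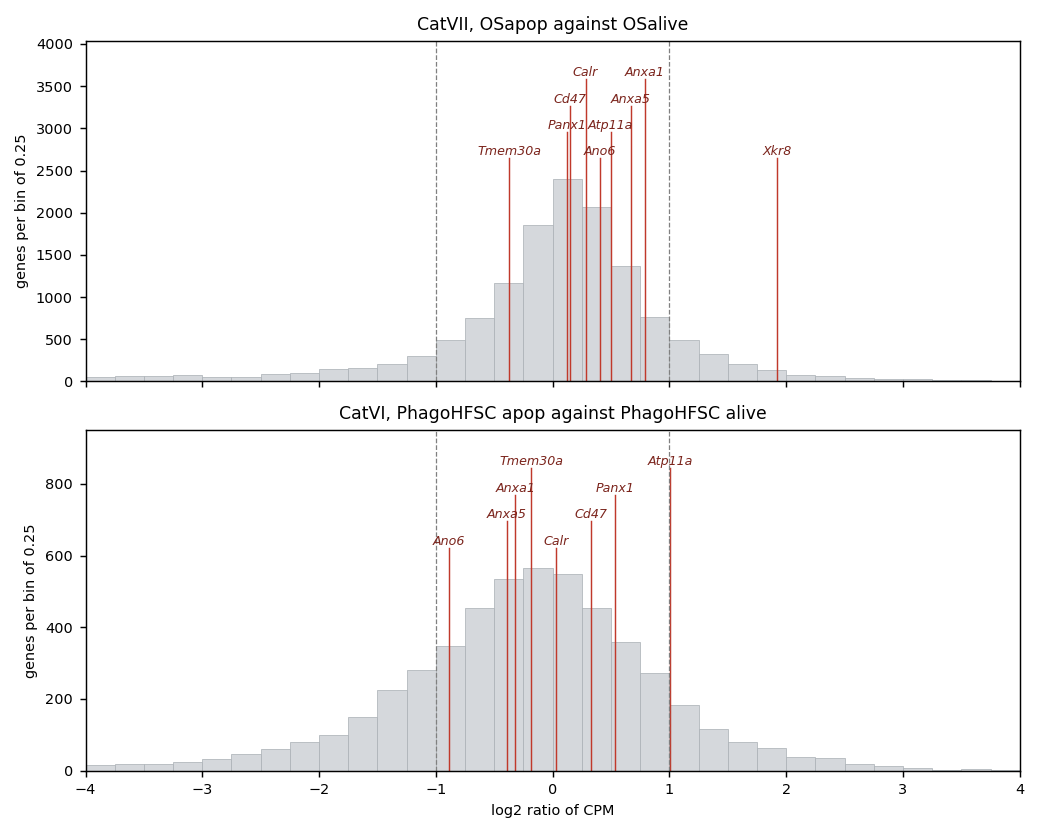
Number of genes (vertical axis) by log2 ratio of apop to alive in bins of 0.25 (horizontal axis, shown from -4 to 4) in CatVII (top) and CatVI (bottom), with the members that had 100 or more counts as red lines and dashed lines at 2-fold. Xkr8 at 1.92 in CatVII and Atp11a at 1.01 in CatVI are the members past the dashed lines.

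Within AnaVI, the lower ORS and the MOS sort were each set against UOS, so that these comparisons, and that of OSalive with UOS below, share UOS. Of 8 members with 100 or more counts, 0 were past 2-fold in either direction in LOS against UOS, beside 14.1% higher and 14.3% lower of 11473 genes. Anxa1 was at 27.2 against 51.2 CPM, a log2 ratio of -0.91 (-1.09 to -0.74), and Panx1 at 10.1 against 5.34 CPM, a log2 ratio of 0.92 (0.59 to 1.23). Cd47 (-0.48), Anxa5 (-0.46), Tmem30a (-0.34) and Atp11a (-0.29) were lower in LOS, and Calr (0.17, but -0.02 with TMM) higher. Ano6 was level at 0.00 (-0.13 to 0.13). The 5 lower genes turned with the scaling: set to the spike-ins, every ratio was 1.14 higher, and all 8 genes were then higher in LOS. With thinned cells Anxa1 (0.07), Anxa5 (0.18) and Atp11a (0.35) turned as well. The deepest LOS cell held 26.9% of the counts of LOS and the highest count of each member but Xkr8, and it also held 97.8% of the endothelial and 66.5% of the smooth muscle marker counts. Without the deepest cell of each sort, Anxa1 was at -1.12 and Cd47 at -0.85.

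In MOS against UOS, again 0 of 8 members were past 2-fold in either direction, beside 6.56% higher and 23.2% lower of 11114 genes. Tmem30a had the largest ratio, at 19.8 against 37.8 CPM, a log2 ratio of -0.94 (-1.17 to -0.71), and Ano6 followed at 75.6 against 51.8 CPM, with 0.55 (0.42 to 0.67). Both kept their direction under each alternative run. The log2 ratio of Anxa1, 0.34 (0.20 to 0.47), turned to -0.81 without its top cell in each sort. Anxa5 had -0.35, Cd47 -0.18, Atp11a -0.03, Calr 0.15 and Panx1 0.16, of which Cd47, Atp11a and Anxa5 changed side under 1 or more alternatives, as did Panx1.

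Between the stages, OSalive was set against UOS. Anxa5 was lower in OSalive past 2-fold, at 19.4 against 70.9 CPM, a log2 ratio of -1.87 (-1.92 to -1.81), and was the only member so, with 0 higher. Of 14159 genes, 11.5% were higher and 26.6% lower by that size. The ratio of Anxa5 stayed between -1.92 and -1.27 under all alternatives run. Calr (-0.88, -0.93 to -0.84), Anxa1 (-0.85, -0.91 to -0.80) and Atp11a (-0.66, -0.71 to -0.61) were lower in OSalive, beside a median of -0.32 over all genes, and kept that direction under each scaling. Cd47 was higher in OSalive, at 89.3 against 69.5 CPM, with 0.36 (0.32 to 0.41), and kept that direction too. Ano6 (0.01), Panx1 (0.00) and Tmem30a (-0.07) were level on the CPM scale and above 0 under the other scalings. With thinned cells Tmem30a was at -0.39 and Panx1 at -0.07, and as a mean over cells Ano6 was at -0.14. Xkr8 (-0.32, -0.70 to 0.07) did not differ beyond counting error. Median-of-ratios and TMM scaling raised every ratio by 0.45, protein-coding totals by 0.34 and spike-ins by 0.59. The labelled regions differ, upper ORS in CatVII and upper-middle ORS in AnaVI, and cannot be told apart from the stage.

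The wider pathway was described by 75 further genes for flippases, scramblases and their partners, phosphatidylserine synthesis and display, and eat-me, do-not-eat-me and find-me signals. In OSapop against OSalive, 51 of them had 100 or more counts, of which 3 were past 2-fold higher and 8 lower, with a median log2 ratio of 0.08. Over all genes tested, the shares past 2-fold were the 10.6% and 11.3% given above and the median was 0.12. In PhagoHFSC apop against alive these numbers were 33, 5 and 5, with a median of 0.17, beside 10.8% higher, 22% lower and a median of -0.19 over all genes.

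In CatVII the genes past 2-fold higher in OSapop on the CPM scale were the flippases Atp10d and Atp8b1 and the enzyme gene Pisd. Atp10d was at 5.19 against 2.26 CPM, from 20 and 24 cells, and Atp8b1 at 10.8 against 5.09 CPM, from 28 and 45 cells. Pisd, a mitochondrial enzyme that turns phosphatidylserine into phosphatidylethanolamine, was at 9.58 against 4.35 CPM, from 47 and 83 cells. TMM scaling shifted every CatVII log2 ratio by -0.20, which left none of these genes past 2-fold. Median-of-ratios scaling (-0.19) left Atp10d only, and spike-in scaling (0.31) left all of them. The genes past 2-fold lower, of which the 7 with the largest ratios are named, had few cells behind them, with Qpctl found in the most. Cd274, the gene of PD-L1, was at 0.0274 against 0.675 CPM, from 1 cell of each sort, and P2ry2, a nucleotide receptor, was at 0 against 0.839 CPM, from 2 cells. Xkr4, an XKR8 paralogue, was at 0.0958 against 1.496 CPM and the fractalkine gene Cx3cl1, a find-me signal, at 0.342 against 1.64 CPM. Plscr4 was at 0.178 against 0.734 CPM and Entpd1, an ectonucleotidase, at 0.370 against 0.926 CPM. Qpctl, whose enzyme modifies CD47 so that SIRPA binds it, was at 1.15 CPM in OSapop and 3.83 CPM in OSalive, with counts in 20 and 32 cells.

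In CatVI, Anxa2 and Anxa8 were higher on the apop plate. Anxa2 was at 211.1 CPM on plate 5 and at 77.5 and 55.2 CPM on plates 1 and 2, and Anxa8 at 160.8 CPM and at 55.2 and 54.8 CPM. For these annexins the alive plates lay close together and plate 5 was above both. On plate 6, also apop, Anxa2 was at 94.6 and Anxa8 at 97.3 CPM. Keratinocyte markers were also highest on plate 5, at 7084 CPM against 3630 and 1645 CPM on plates 1 and 2 and 3441 CPM on plate 6, and their part in the annexin levels was not tested. In CatVII the same genes were at 222.6 and 268.4 CPM in OSapop and at 178.2 and 188.7 CPM in OSalive. Also past 2-fold higher in CatVI were the flippase Atp8a2, at 55.4 against 22.7 CPM, B2m, part of MHC class I, at 40.7 against 13.7 CPM, and Sphk1, which makes sphingosine 1-phosphate, at 16.7 against 4.77 CPM. The alive plates were far apart for Atp8a2, at 10.4 and 52.5 CPM, for B2m, at 8.75 and 25.6 CPM, and for Sphk1, at 1.82 and 11.9 CPM.

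Lower on the CatVI apop plate were Sirpa, the receptor of CD47, at 8.45 CPM against 34.1 and 41.9 CPM on plates 1 and 2, and the chaperone Hspa5 at 19.8 CPM against 38.1 and 49.5 CPM. Pisd was at 2.45 CPM against 13.1 and 21.6 CPM, and Atp8b1 at 5.78 CPM against 27.7 and 0.442 CPM. On plate 6, also apop, Sirpa was at 21.7, Hspa5 at 17.9, Pisd at 10.9 and Atp8b1 at 2.17 CPM. Sirpa had a count in 9 of the 15 cells of plate 5. It had a count in 15 cells of plates 1 and 2 together, which held 19 and 9 usable cells. In CatVII Sirpa was at 28.96 CPM in OSapop and 23.1 CPM in OSalive. Pecam1 was at 33.9 CPM on plate 1, from 3 cells, and at 0 on plates 2 and 5.

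Over the 9 sorts and plates, the genes whose log2(CPM + 1) ran most like that of a member had Pearson correlations of 0.90 to 0.98, among 8011 or 8012 candidates. With so few points of unequal depth, these are descriptions only. The closest were Mark4 and Dsg3 for Xkr8, Pcsk6 and Gli3 for Ano6, Vcf1 and Camk2g for Atp11a, and Arf6 and Ngly1 for Tmem30a. For the recognition genes they were Elof1 and Fis1 for Calr, Col5a2 and Gm12715 for Anxa1, Hnrnpf and Arpc2 for Anxa5, and Myo1c and Sgms2 for Cd47. Xpr1 and Upf1 were closest to Panx1.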

How the data were processed

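According to the study's methods and processing notes, alignment used STAR 2.6 and the mm39 genome, and the authors quantified transcripts with Salmon 1.4.0 and summed them per gene in R 3.6.1. They deposited estimated counts per gene and cell, with 92 spike-ins, without normalization or a filter on cells. These were rounded here. Cells with 2000 or more detected genes were kept, and 463 of 1036 cells entered the groups. A sample in a CatVII sort whose stage label reads CatVI was left out, and 1 CatVI sample has no column and is not analysed here. Counts were summed per sort or plate and scaled to 1000000 gene counts (CPM), spike-ins left out. A gene was measured in a comparison with 100 or more counts over both groups and called past 2-fold. Groups at 0 were set to 3 counts. Intervals are exact 95% limits (Poisson for CPM, Clopper-Pearson for shares, binomial for ratios) and cover counting error only, since amplified reads carry no molecular identifiers.

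The members, lists and comparisons were chosen with earlier results of these data known. Genes named are the 9 members, up to 10 other pathway genes past 2-fold in each apop against alive comparison, and the 2 genes most like each member over the sorts, among those with 100 or more counts and 10 CPM in 1 sort. Tmem30b was named as well, beside Tmem30a. Doublets were not called. Well labels occurred more than once within a sort in 160 cases, and no 2 usable cells had identical counts. Alternatives concerned scaling, the weight of cells, thinning, filters and left-out cells or plates. Gene positions come from the GENCODE annotation of GRCm39, which held 93.35% of the identifiers. The ratio script was tested on simulated data. Tools were Python 3.11.15, numpy 2.4.6, pandas 2.3.3, scipy 1.17.1, matplotlib 3.10.9, minimap2 2.31-r1302, and R 4.3.3 with edgeR 4.0.16 for TMM factors only.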

Additional observations from a re-analysis of the deposited data

Results flagged for a closer look

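Ano6 and Anxa5 ran in opposite directions in the stages when apop cells were set against alive cells. The log2 ratio of Ano6 was 0.41 in CatVII and -0.89 in CatVI (PhagoHFSC), and that of Anxa5 was 0.67 and -0.39. In each case the counting interval left out 0. The difference between the stages was not tested, since each sort or plate is 1 sample, and alive plate 2 against alive plate 1 of CatVI gave -0.80 for Ano6 and -0.89 for Anxa5. Against plate 2 alone the CatVI ratio of Anxa5 was 0.28, the same sign as in CatVII, and 1 cell held 85.5% of the Anxa5 counts of plate 2.

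Plate 4 (NonPhagoHFSC alive), whose cells entered no comparison, held 5 counts of 2 members in 57 cells and 27556 counts in all, where at most 32 genes were detected in a cell. Plate 3 held 0 counts of the members in 1104 counts.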

How the results depend on the processing

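Of 520 log2 ratios of members recomputed under the alternatives, 451 had the sign of the reported ratio and 69 the other. The fewest counts lay behind Xkr8. In CatVII the 1 member past 2-fold higher became 2 with spike-in scaling (Anxa1 joined) and 0 as a mean over cells, with thinned cells and without each member's top cell, where the ratio of Xkr8 turned to -0.28. In CatVI the 1 member higher became 0 with TMM, protein-coding totals, spike-ins, the mean over cells, thinned cells, and without the deepest or each member's top cell, and 2 in cells with 3000 or more detected genes. Without plate 1 it was again 1 but another gene, Panx1 (2.28, from 58 and 6 counts), while Atp11a was at 0.33. In CatVI 1 member was past 2-fold lower, instead of 0, as a mean over cells and with thinned cells (Ano6), without plate 1 (Anxa1) and without plate 2 (Ano6). In LOS against UOS 3 were higher with spike-ins, 1 with thinned cells and 1 without each member's top cell, and 1 was lower with TMM, with thinned cells, without the deepest cell and with a minimum of 30 counts. In MOS against UOS 1 was lower without each member's top cell and with a minimum of 30 counts. The cause was not tested. The reported counts in OSalive against UOS did not move. Other scalings shifted every ratio by -0.20 to 0.31 in CatVII, -0.07 to 0.19 in CatVI and -0.19 to 1.14 in LOS against UOS. The NonPhagoHFSC comparison at 1000 detected genes was not possible because no alive cell reached them. No paired analysis was possible because no test was made and no replicate number pairs the cells of different sorts.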
